A study of Mus musculus with 15 samples.

Results

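A group of 9 genes that send, receive or dampen transforming growth factor beta (TGF-beta) and activin signals was followed in mammary tumors and mammary glands of mice. They were chosen by symbol, 9 of the 51826 genes listed in the deposited expression tables. The ligand genes were Tgfb1, Tgfb2, Tgfb3 and Inhba, the receptor genes were Tgfbr1, Tgfbr2 and Tgfbr3, and the feedback targets were Smad7 and Skil. All 9 passed the filter on low values in every comparison.

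The study used RNA sequencing to compare tumors of mice that overexpressed TRIM24, a bromodomain protein that reads histone marks, with glands of control mice. The Trim24COE mice carried 1 copy of a Flag-tagged mouse Trim24 transgene under a ubiquitin C promoter and behind a floxed stop, from a single founder line, and MMTV-Cre removed that stop in mammary epithelium. Virgin Trim24COE females were kept until a tumor could be felt, and 6 tumors were sequenced, 3 metaplastic carcinosarcomas (tumors 64, 567 and 897) and 3 carcinomas (tumors 89, 273_5 and 3956). The control group was 4 whole mammary glands without disease from age-matched mice that carried MMTV-Cre alone (glands 133, 392, 417_3 and 517_3). Thus Trim24COE tumors and control glands shared the Cre transgene and differed in the Trim24 transgene and in being a tumor or a gland. The last group held 3 spontaneous mammary carcinomas, called non-TRIM24 tumors (219, FVB001 and FVB002), whose genotype was given as unknown. The labels give the strain of all mice as FVB, while the study, where it reports its results, also names a mixed background for the spontaneous tumors. Pathologists differed on the type of tumors 89, 567 and 3956, and the types used here are those of the labels. The mouse was the unit of replication, and exact ages in days were not used here.

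Levels are in TPM, a measure of transcript abundance scaled by transcript length that sums to a fixed total in each library. Such values do not hold the read depth, and no counting interval was made. The 15 libraries came from 13 mice in 2 sequencing batches. Batch 2 held all non-TRIM24 tumors and a repeat library each of gland 133 and tumor 3956, and means use the first library of each mouse. A list of 10 epithelial markers summed to between 372 and 1424 TPM in the metaplastic carcinosarcomas, between 2626 and 6290 TPM in the carcinomas and between 856 and 6007 TPM in the control glands. The summed level of 11 adipocyte markers was 22199 and 28774 TPM in glands 133 and 392 but 1725 and 1901 TPM in glands 417_3 and 517_3, so the 4 control glands held unlike tissue. Trim24 itself was between 10.6 and 24.1 TPM in the Trim24COE tumors and between 14.5 and 22.4 TPM in the control glands, so its total transcript level did not separate these groups in whole tissue. In such bulk samples, fewer cells of a type and less RNA per cell cannot be told apart.

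TGF-beta is made as an inactive complex and, once released, brings together a type II receptor, encoded by Tgfbr2, and a type I receptor, encoded by Tgfbr1. The active receptor phosphorylates SMAD2 and SMAD3, which enter the nucleus with SMAD4 and turn on target genes. Activin A, a dimer of the protein made from Inhba, reaches the same SMADs through its own receptors. In mammary epithelium the pathway is known both for holding back growth and for driving epithelial to mesenchymal change.

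The promoters of Inhba and Tgfb1 are shown because these were the 2 ligand genes with higher levels in Trim24COE tumors, by amounts given further on. The sequence is the 250 bases before the annotated start on the plus strand in RefSeq, build GRCm38.p6, which covered 5 of the 9 genes, Tgfb1, Tgfb2, Tgfbr1, Tgfbr2 and Inhba. Capitals mark every match, on either strand, to the searched letters TATAAA (the core promoter element called the TATA box), GGGCGG (known as the GC box), TGANTCA (an AP-1 site), TGACGTCA (a cyclic AMP response element), CACGTG (an E-box), GTCTAGAC (a palindromic SMAD element) and CAGAC (a short SMAD element).
Inhba chr13:16011601-16011850: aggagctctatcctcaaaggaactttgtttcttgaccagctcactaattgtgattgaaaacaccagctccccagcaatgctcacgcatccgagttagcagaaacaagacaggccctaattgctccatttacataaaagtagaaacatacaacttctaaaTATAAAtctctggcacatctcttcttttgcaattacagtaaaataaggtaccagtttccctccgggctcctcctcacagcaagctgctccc
Tgfb1 chr7:25686752-25687001: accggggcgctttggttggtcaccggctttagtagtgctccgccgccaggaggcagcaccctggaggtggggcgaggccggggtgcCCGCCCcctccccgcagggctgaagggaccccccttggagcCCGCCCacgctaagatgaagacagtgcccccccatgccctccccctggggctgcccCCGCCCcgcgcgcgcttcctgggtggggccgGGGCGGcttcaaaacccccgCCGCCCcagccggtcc
The Inhba window held 1 TATA box, at bases -91 to -86 from the start, and none of the other searched motifs. The Tgfb1 window held 5 GC boxes and none of the others. GC content was 43.2% for Inhba, with 18.98% of the 32851 windows lower, and 75.2% for Tgfb1, with 96.09% lower. TATAAA was found in 12.4% of all windows, GGGCGG in 32.7%, TGANTCA in 6.75%, TGACGTCA in 1.55%, CACGTG in 6.02%, CAGAC in 42.2% and GTCTAGAC in 0.167%. A match is a description of the letters and does not show that a factor binds there.

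Inhba (ENSMUSG00000041324.14, chr13:16011851-16031621, plus strand, GRCm38) encodes the beta A subunit of activin A and of inhibin A. It was higher in all 6 Trim24COE tumors than in any control gland. Its level was 55.74, 51.54 and 15.8 TPM in metaplastic carcinosarcomas 64, 567 and 897, and 56.47, 9.09 and 65.13 TPM in carcinomas 89, 273_5 and 3956. In control glands 133, 392, 417_3 and 517_3 it was 2.03, 0.85, 1.42 and 1.51 TPM. Hence the lowest tumor stood above the highest gland, and tumors 273_5 and 897 were the lowest of both tumor types. The mean was 42.3 ± 23.6 TPM in the tumors (SD, n = 6) and 1.45 ± 0.483 TPM in the glands (SD, n = 4), a 14.6-fold difference on the scale of TPM + 1. The log2 change was 3.87 ± 0.53 (SE, limma, adjusted p = 0.00123), and the exact permutation test gave p = 0.00476 (two-sided), the smallest value that 6 against 4 mice allow. A gene was called where its adjusted p was under 0.05, and the call of Inhba was kept in each of 9 other settings with all mice (limma, adjusted p from 0.000484 to 0.0119) and in each of 10 fits that left out 1 mouse (limma, adjusted p from 0.000393 to 0.00528).

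**Figure D1:**
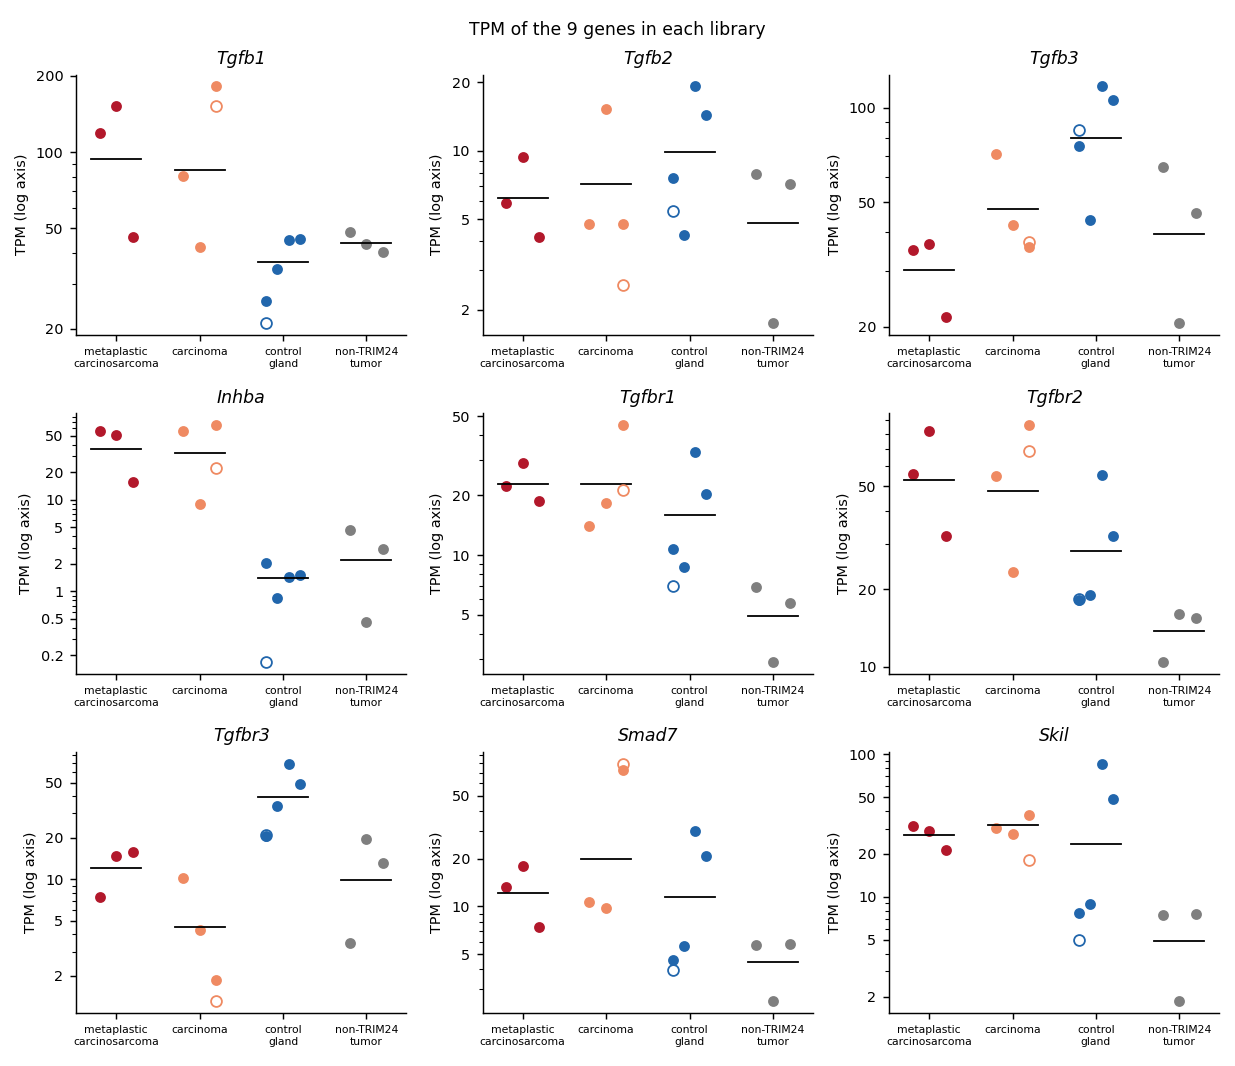
TPM of each of the 9 genes (log axis) in the 4 groups, with 1 filled point for the first library of each mouse, 1 open point for each repeat library of gland 133 and tumor 3956, and a black line at the mean of log2(TPM + 1), converted back. Inhba is above 9 TPM in all 6 Trim24COE tumors and at most 2.03 TPM in the 4 control glands, while Skil and Smad7 separate the glands into a low and a high pair.

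The repeat libraries set a limit on the Inhba level. Gland 133 had 2.03 TPM in the first library and 0.17 TPM in the second, and tumor 3956 had 65.13 and then 22.18 TPM. Both repeats were lower, with ratios of 0.0837 and 0.3405 to the first library. Inside batch 2, tumor 3956 remained above gland 133, and the non-TRIM24 tumors 219, FVB001 and FVB002 lay between them at 4.69, 0.46 and 2.88 TPM.

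The summed macrophage markers separated tumors from glands as Inhba did, while the summed fibroblast markers did so only in part. The summed level of 10 macrophage markers was between 2348 and 7211 TPM in the Trim24COE tumors and between 822 and 1470 TPM in the glands, and none of these markers was at 0 in any library. Taken singly, Cd14, Adgre1 and Mrc1 overlapped between tumors and glands. Cd14 was at 347.13 and 361.6 TPM in glands 417_3 and 517_3, above every tumor. The other macrophage markers were higher in each tumor than in any gland. Among the tumors the macrophage sum went with Inhba in some and not in others. Tumor 273_5 was lowest in both, at 2348 TPM with Inhba at 9.09 TPM, and tumor 3956 had 7012 TPM with Inhba at 65.13 TPM. Tumor 89 had 2436 TPM with Inhba at 56.47 TPM, and tumor 897 had 4747 TPM with Inhba at 15.8 TPM. The sum of 10 fibroblast markers was between 379 and 7064 TPM in the tumors and between 693 and 1883 TPM in the glands, lowest in tumor 273_5. Not every marker of that list rose. Dcn was at 252.58, 35.76 and 81.97 TPM in carcinomas 89, 273_5 and 3956, below the lowest gland at 355.9 TPM. The part of macrophages and fibroblasts in the Inhba level was not tested.

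Tgfb1 (ENSMUSG00000002603.15, chr7:25687002-25705077, plus strand) encodes the ligand most widely made by epithelial, stromal and immune cells. The values in tumors 64, 567 and 897 were 118.98, 151.44 and 46.18 TPM, and those in tumors 89, 273_5 and 3956 were 80.49, 42.01 and 181.8 TPM. Glands 133, 392, 417_3 and 517_3 held 25.77, 34.43, 45.0 and 45.48 TPM. Accordingly, 5 of the 6 tumors exceeded every gland, and tumor 273_5 lay within the gland range. The mean was 103.5 ± 57.0 TPM in the tumors (SD, n = 6) and 37.7 ± 9.43 TPM in the glands (SD, n = 4). The log2 change was 1.26 ± 0.42 (SE), which did not pass over all genes (limma, adjusted p = 0.0613). Tested as a single value it gave p = 0.0429 (exact permutation test, two-sided), and over 9 other settings the adjusted p from limma ranged from 0.0441 to 0.327. It passed with median ratio scaling, with quantile normalization, and without tumor 897 (limma, adjusted p = 0.0422) or tumor 273_5 (limma, adjusted p = 0.0265).

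Tgfb3 (ENSMUSG00000021253.7, chr12:86056745-86079041, minus strand), a ligand expressed in mammary epithelium and known for its rise at the start of involution, went the other way. It was at 35.21, 36.64 and 21.44 TPM in tumors 64, 567 and 897 and at 71.06, 42.13 and 35.87 TPM in tumors 89, 273_5 and 3956. The control glands 133, 392, 417_3 and 517_3 had 75.55, 43.81, 117.17 and 106.0 TPM. Every metaplastic carcinosarcoma was below every gland, while carcinoma 89 stood above gland 392. The mean was 40.4 ± 16.5 TPM in the tumors (SD, n = 6) against 85.6 ± 33.0 TPM in the glands (SD, n = 4), and the log2 change of -1.06 ± 0.35 (SE) did not pass (limma, adjusted p = 0.0579). The exact permutation test of this 1 gene gave p = 0.0143 (two-sided). Over 9 other settings the adjusted p from limma ranged from 0.024 to 0.121, passing in 3, and it also passed without tumor 89 (0.0233) or gland 392 (0.0288).

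Tgfb2 (ENSMUSG00000039239.14, chr1:186622792-186705989, minus strand) was the least abundant of the 3 TGF-beta ligand transcripts in every library on the length-scaled TPM values. It ranged from 4.16 to 15.33 TPM in the Trim24COE tumors, with a median of 5.34 TPM, and from 4.27 to 19.19 TPM in the glands, with a median of 10.9 TPM. These ranges overlapped almost fully, and the log2 change was -0.51 ± 0.44 (SE, limma, adjusted p = 0.457).

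Because TPM values are corrected for transcript length, the 3 TGF-beta ligands could be set against each other within a library. Tgfb3 was the leading ligand transcript in the control glands, with 62.8 ± 6.88% of the summed TPM of Tgfb1, Tgfb2 and Tgfb3 (SD, n = 4). In the Trim24COE tumors Tgfb1 had the largest mean share, 65.1 ± 15.5% (SD, n = 6), against 29.4 ± 8.36% in the glands (SD, n = 4), and it led in each tumor but 273_5, where Tgfb3 was level with it at 42.13 against 42.01 TPM. The share of Tgfb1 was 74.3, 76.7 and 64.3% in tumors 64, 567 and 897, 51.5, 42.2 and 81.7% in tumors 89, 273_5 and 3956, and 23.7, 41.7, 24.8 and 27.4% in glands 133, 392, 417_3 and 517_3. The groups did not overlap, although carcinoma 273_5 and gland 392 lay close to each other. The difference was 35.7 percentage points for Tgfb1 and -33.7 points for Tgfb3, each with p = 0.00952 (exact permutation test, two-sided). The 3 shares add to the whole and that of Tgfb2 was small, so the tests of Tgfb1 and Tgfb3 are nearly the same test. The share of Tgfb2 differed by -2.03 points (p = 0.49, exact permutation test), from 5.80 ± 4.88% in the tumors (SD, n = 6) and 7.84 ± 2.31% in the glands (SD, n = 4).

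**Figure D2:**
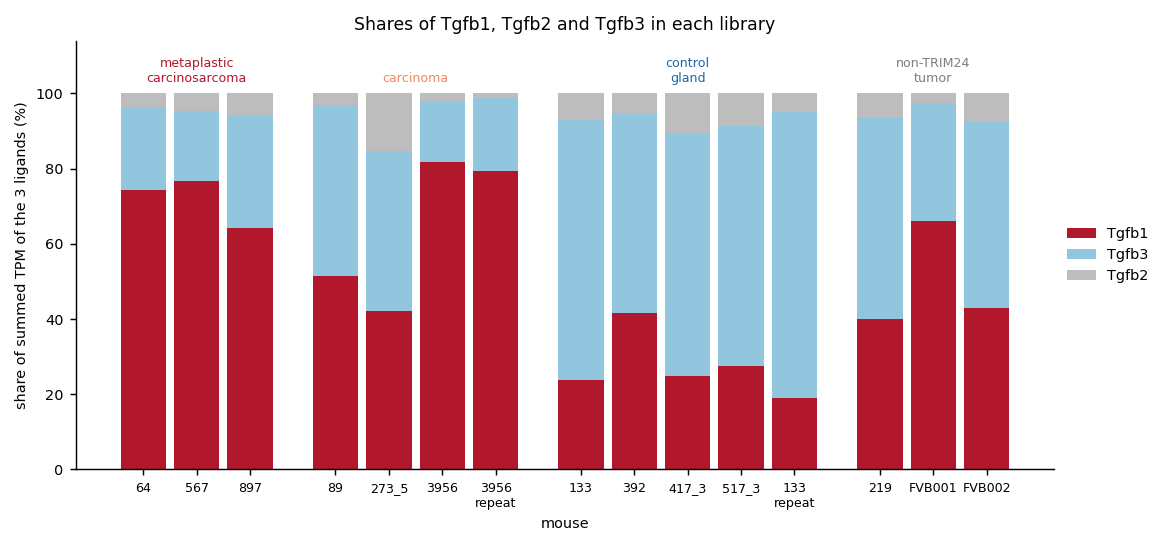
Share of Tgfb1, Tgfb2 and Tgfb3 in their summed TPM (percent) for each library, stacked to the full height. The Tgfb1 share runs from 42.2 to 81.7% in the Trim24COE tumors and from 23.7 to 41.7% in the control glands, and the non-TRIM24 tumors reach from 39.9 to 66.0%.

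The non-TRIM24 tumors had Tgfb1 shares of 39.9, 66.0 and 43.0% for 219, FVB001 and FVB002, which overlapped both other groups. The repeat library of tumor 3956 gave 79.2% and that of gland 133 gave 19.0%, close to the 81.7 and 23.7% of their first libraries. Thus the shares moved less between batches than the Inhba level did. Macrophages make Tgfb1, and the macrophage marker sums given for Inhba also separated these groups, but their part in the shares was not tested.

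Tgfbr3 (ENSMUSG00000029287.14, chr5:107106570-107289629, minus strand) encodes betaglycan, a co-receptor that presents TGF-beta to the signaling receptors and also binds inhibin. It was lower in all 6 Trim24COE tumors than in any control gland. Its values were 7.5, 14.72 and 15.88 TPM in tumors 64, 567 and 897 and 10.23, 4.27 and 1.86 TPM in tumors 89, 273_5 and 3956. In glands 133, 392, 417_3 and 517_3 the values were 20.46, 33.73, 68.38 and 49.37 TPM. The highest tumor was thus below the lowest gland, and the gap between them was small beside the spread of the glands. Means were 9.08 ± 5.61 TPM in tumors (SD, n = 6) and 43.0 ± 20.6 TPM in glands (SD, n = 4). The log2 change was -2.24 ± 0.52 (SE, limma, adjusted p = 0.015), or 0.212-fold on the scale of TPM + 1, and the exact permutation test gave p = 0.00952 (two-sided).

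The fall of Tgfbr3 was called in 9 of 9 other settings with all mice and in 10 of 10 fits without 1 mouse. It was not called without glands 417_3 and 517_3 together (limma, adjusted p = 0.105), a check chosen after these data were seen. Between tumors and glands, marker sums of other cells differed in the same direction. Endothelial markers summed to between 93.9 and 528 TPM in the tumors and 489 to 704 TPM in the glands. Not every endothelial marker fell. Emcn was at 54.24, 60.33 and 47.35 TPM in tumors 64, 567 and 897 and at 29.74, 16.08 and 51.54 TPM in tumors 89, 273_5 and 3956, against 24.98 to 44.73 TPM in the glands. Adipocyte markers summed to between 99.0 and 1196 TPM in the tumors and 1725 to 28774 TPM in the glands. Within the glands the adipocyte sums ran the other way. They were 22199 and 28774 TPM in glands 133 and 392, where Tgfbr3 was 20.46 and 33.73 TPM. In glands 417_3 and 517_3 they were 1725 and 1901 TPM, with Tgfbr3 at 68.38 and 49.37 TPM. The part of these cells in the Tgfbr3 level was not tested.

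The signaling receptors did not separate the tumors from the glands. Tgfbr2 (ENSMUSG00000032440.13, chr9:116084293-116175360, minus strand), the type II receptor, was at 55.77, 81.59 and 32.04 TPM in tumors 64, 567 and 897, at 54.82, 23.39 and 86.23 TPM in tumors 89, 273_5 and 3956, and at 18.22, 18.96, 55.3 and 32.1 TPM in glands 133, 392, 417_3 and 517_3. Only 3 of 6 tumors exceeded every gland, and the log2 change was 0.82 ± 0.42 (SE, limma, adjusted p = 0.204). Tgfbr1 (ENSMUSG00000007613.15, chr4:47353222-47414931, plus strand), the type I receptor, ranged from 13.97 to 45.03 TPM in the tumors (median 20.4) and from 8.67 to 32.83 TPM in the glands (median 15.5). These ranges overlapped, with a log2 change of 0.49 ± 0.40 (SE, limma, adjusted p = 0.427). The 95% interval of the change was -0.11 to 1.75 for Tgfbr2 and -0.40 to 1.38 for Tgfbr1, so differences of these sizes could not be told from none. In metaplastic carcinosarcomas alone, both receptors were called higher once glands 417_3 and 517_3 were left out, with values given further on.

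Smad7 (ENSMUSG00000025880.11) and Skil (ENSMUSG00000027660.16, chr3:31095058-31122577, plus strand) are targets of the pathway that act back on it. SMAD7 blocks the type I receptor and SKIL, also called SnoN, holds SMAD complexes in check on DNA. Neither passed between Trim24COE tumors and control glands, with log2 changes of 0.41 ± 0.66 (SE, limma, adjusted p = 0.707) for Smad7 and 0.29 ± 0.59 (SE, limma, adjusted p = 0.768) for Skil. Smad7 was 13.36, 18.0 and 7.46 TPM in tumors 64, 567 and 897, 10.64, 9.76 and 72.44 TPM in tumors 89, 273_5 and 3956, and 4.59, 5.63, 29.89 and 20.71 TPM in glands 133, 392, 417_3 and 517_3. Tumor 3956 stood apart from the rest of its group, and its repeat library gave 79.27 TPM. Skil was 31.59, 29.13 and 21.28 TPM in tumors 64, 567 and 897, 30.54, 27.7 and 37.81 TPM in tumors 89, 273_5 and 3956, and 7.71, 8.9, 85.44 and 48.75 TPM in glands 133, 392, 417_3 and 517_3. The tumors lay close together in Skil, while a pair of glands lay below and a pair above all 6 tumors.

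This split of the control glands ran through most of the 9 genes. In 8 of them, all but Inhba, glands 417_3 and 517_3 were both higher than glands 133 and 392. Mean Skil was 67.1 TPM in the first pair and 8.31 TPM in the second, an 8.08-fold difference, and Smad7 differed 4.95-fold, from 25.3 to 5.11 TPM. The ratio was between 1.503 and 2.83 for Tgfb1, Tgfb2, Tgfb3, Tgfbr1, Tgfbr2 and Tgfbr3. Inhba was alike in both pairs, at 1.47 and 1.44 TPM, a ratio of 1.02. These pairs were formed after their values were seen, so no test was made between them.

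**Figure D3:**
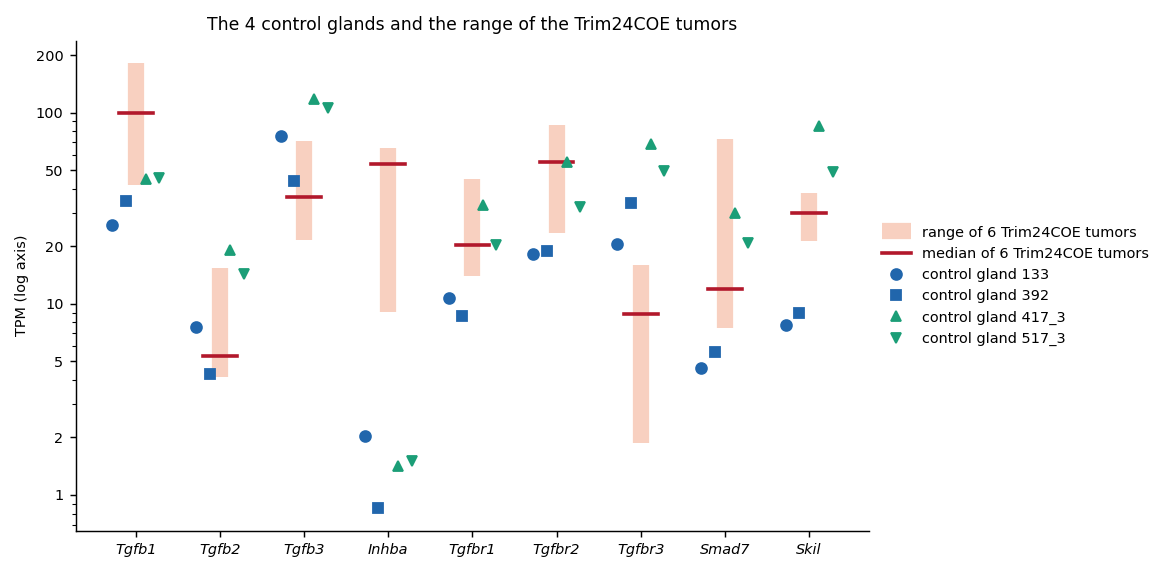
TPM (log axis) of the 9 genes in the 4 control glands, with 1 mark for each gland (blue for glands 133 and 392, green for glands 417_3 and 517_3), a shaded bar for the range of the 6 Trim24COE tumors and a red line for their median. Skil is at 7.71 and 8.9 TPM in the first pair and at 85.44 and 48.75 TPM in the second, while Inhba lies between 0.85 and 2.03 TPM in all 4.

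The direction of the Skil difference therefore depended on which glands were used. Without glands 133 and 392, Skil was lower in the Trim24COE tumors (log2 change -1.12, limma, adjusted p = 0.0295). Without glands 417_3 and 517_3, it was higher (log2 change 1.70, limma, adjusted p = 0.0031). The sums of adipocyte, epithelial and smooth muscle markers all moved with the split. The epithelial sum was 856 and 1508 TPM in glands 133 and 392 and 5715 and 6007 TPM in glands 417_3 and 517_3, and that of smooth muscle and pericytes was 376 and 445 against 1927 and 1874 TPM. In this last list only Acta2, Myh11 and Notch3 were higher in both of glands 417_3 and 517_3. Rgs5, Cspg4, Pdgfrb, Des, Mcam and Kcnj8 were lower there, and Abcc9 was mixed. The part of these cell types in the split was not tested.

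The Trim24COE tumors and control glands differed in 2 of the 9 genes, Inhba and Tgfbr3, at an adjusted p under 0.05 in limma. Across all 15196 genes tested the share called was 17.1%, so the count of 2 of 9 is near the background. The same 2 genes were those whose groups did not overlap, against 14.6% of all genes tested. The median log2 change of the 9 genes was 0.41, beside -0.04 for all genes. An unadjusted p under 0.05 (limma) was found for 4 of the 9, and for 4953 of all 15196 genes tested.

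The tumor types were next compared with the glands one at a time. In metaplastic carcinosarcomas, 3 of the 9 genes were called, against 23.0% of all genes tested. Inhba was higher by 3.93 ± 0.46 on the log2 scale (SE, limma, adjusted p = 0.0018), Tgfb3 was lower with a log2 change of -1.38 ± 0.38 (SE, limma, adjusted p = 0.0361) and Tgfbr3 was lower with a log2 change of -1.62 ± 0.44 (SE, limma, adjusted p = 0.0349). With 1 mouse left out, the call of Tgfb3 was kept only without gland 392 and that of Tgfbr3 only without gland 133, and the other fits gave adjusted p from 0.0584 to 0.121 and from 0.0507 to 0.144 (limma). The Inhba call was kept in all 7 such fits. Without glands 417_3 and 517_3, Tgfb3 and Tgfbr3 were not called (limma, adjusted p = 0.102 and 0.0922). Tgfbr1, Tgfbr2 and Skil were then called higher (log2 changes 1.17, 1.46 and 1.59, limma, adjusted p = 0.0259, 0.0396 and 0.00956), beside 31.9% of all genes tested. Without glands 133 and 392, Tgfb2 and Skil were called lower (limma, adjusted p = 0.0371 and 0.0256), beside 37.6%. The Inhba call was kept in both.

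In carcinomas, 2 of the 9 genes were called, against 3.50% of all genes tested. Inhba rose by 3.80 ± 0.64 on the log2 scale (SE, limma, adjusted p = 0.025), and Tgfbr3 had a log2 change of -2.86 ± 0.56 (SE, limma, adjusted p = 0.0364). With 1 mouse left out, the Inhba call was kept in 3 of 7 fits, being lost without tumor 89, tumor 3956, gland 417_3 or gland 517_3, and the Tgfbr3 call was kept in 2 of 7, without tumor 89 or gland 133. The adjusted p of the lost fits ran from 0.0643 to 0.0856 for Inhba and from 0.0634 to 0.108 for Tgfbr3 (limma). Without glands 133 and 392, or without glands 417_3 and 517_3, Inhba did not pass either (limma, adjusted p = 0.0546 and 0.0569), while its log2 change stayed at 3.77 and 3.83. Tgfbr3 kept its call without glands 133 and 392 and lost it without glands 417_3 and 517_3 (log2 change -2.30, limma, adjusted p = 0.0763). Skil was called higher without glands 417_3 and 517_3 (log2 change 1.82, limma, adjusted p = 0.0312), beside 7.81% of all genes tested. The other 7 genes did not pass in this comparison with all mice.

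**Figure D4:**
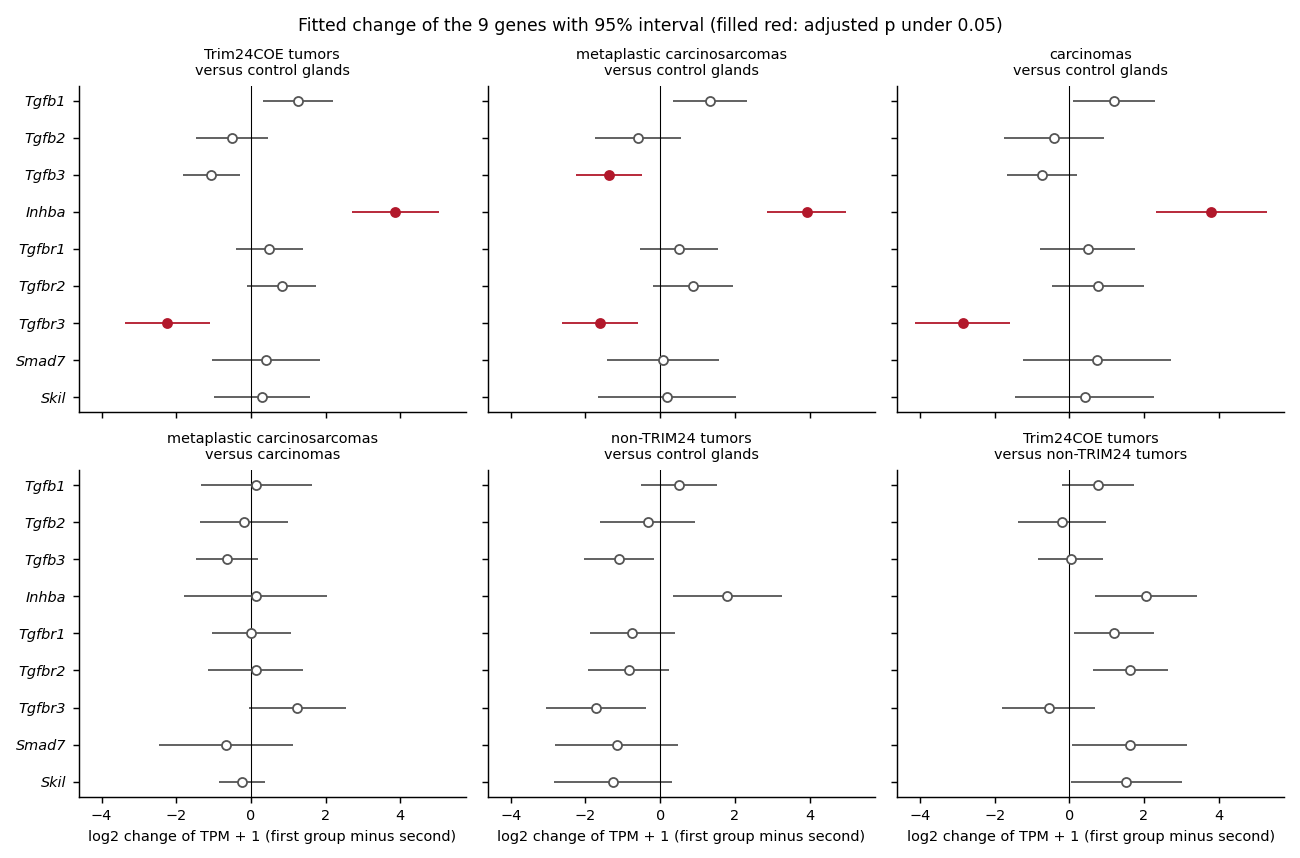
Log2 change of TPM + 1 for the 9 genes in each comparison, with 95% intervals from limma and filled points for an adjusted p under 0.05. Inhba is filled on the right and Tgfbr3 on the left in all 3 comparisons of Trim24COE tumors with control glands, and no gene is filled in the comparisons that involve non-TRIM24 tumors or set the tumor types against each other.

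Metaplastic carcinosarcomas and carcinomas were compared directly to ask whether the histological types differ in this pathway. None of the 9 genes passed in limma, against 0.698% called over all genes tested. None had an unadjusted p under 0.05, beside 2126 of all 14193 genes tested. The log2 difference was 0.13 for Inhba, with a 95% interval of -1.79 to 2.05, so a severalfold difference in either direction remained possible. It was 1.25 for Tgfbr3 (95% interval -0.05 to 2.54, limma, adjusted p = 0.345), with 12.7 ± 4.54 TPM in metaplastic carcinosarcomas and 5.45 ± 4.31 TPM in carcinomas (SD, n = 3 each), and -0.66 for Smad7 (limma, adjusted p = 0.713). For Inhba, tumor-to-tumor spread within a type was larger than the difference between types.

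The non-TRIM24 tumors were compared to ask which values are shared by mammary tumors that arose without the Trim24 transgene. They were sequenced in batch 2 alone, so the fit carried a batch term that rested on the 2 repeated mice. Against control glands none of the 9 genes was called, beside 0.709% of all genes tested. An unadjusted p under 0.05 was found for 3235 of all 16775 genes tested and for 3 of the 9. Those were Inhba, with a log2 change of 1.80 ± 0.68 (SE, limma, adjusted p = 0.185), Tgfbr3, with -1.72 ± 0.62 (SE, limma, adjusted p = 0.171), and Tgfb3, with -1.11 ± 0.44 (SE, limma, adjusted p = 0.204). All 3 pointed the same way as in the Trim24COE tumors, but both comparisons shared the control glands. The measured Inhba values of the non-TRIM24 tumors, from 0.46 to 4.69 TPM, spanned those of the glands.

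Between Trim24COE and non-TRIM24 tumors no gene of the 9 was called either, against 2.27% of all genes tested. An unadjusted p under 0.05 was found for 4078 of all 16775 genes tested and for 5 of the 9. These 5 were all higher in Trim24COE tumors. The log2 difference was 2.05 ± 0.63 for Inhba (SE, limma, adjusted p = 0.0877), 1.63 ± 0.47 for Tgfbr2 (SE, limma, adjusted p = 0.0746), 1.19 ± 0.49 for Tgfbr1 (SE, limma, adjusted p = 0.161), 1.62 ± 0.71 for Smad7 (SE, limma, adjusted p = 0.186) and 1.52 ± 0.69 for Skil (SE, limma, adjusted p = 0.196). Inhba and Tgfbr2 passed when the batch term was left out (limma, adjusted p = 0.0361 and 0.0264) and when tumor 273_5 was left out (limma, adjusted p = 0.0269 and 0.0357). Tgfbr1 was at 6.94, 2.9 and 5.72 TPM in tumors 219, FVB001 and FVB002, Tgfbr2 at 10.47, 16.0 and 15.52 TPM and Skil at 7.42, 1.87 and 7.63 TPM. For Tgfbr1, Tgfbr2, Skil and Smad7 the non-TRIM24 tumors were the lowest group and lay below every first library of the Trim24COE tumors. Inhba in the non-TRIM24 tumors also lay below every one of those libraries, though not below the glands. The share of all genes without overlap between these tumor groups was not counted. The repeat libraries of batch 2 were also lower than the first ones for Tgfbr1 and Skil. Tumor 3956 went from 45.03 to 21.22 TPM in Tgfbr1 and from 37.81 to 18.14 TPM in Skil, ratios of 0.4712 and 0.4798. Gland 133 gave ratios of 0.6493 and 0.6420 for the same genes, whereas Tgfbr2 had ratios of 0.7935 in tumor 3956 and 1.0044 in gland 133.

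Smad7 and Tgfb2 in the non-TRIM24 tumors lay at 5.71, 2.54 and 5.8 TPM and at 7.91, 1.75 and 7.12 TPM in the same order. Tgfb1 was at 48.23, 43.34 and 40.16 TPM, Tgfb3 at 64.71, 20.53 and 46.18 TPM and Tgfbr3 at 3.45, 19.75 and 13.11 TPM. FVB001 had the lowest value of the 3 in 6 of the 9 genes, and adipocyte markers summed to 39702 TPM in it and 18678 TPM in FVB002 but to 137 TPM in 219. The spontaneous tumors, like the control glands, thus differed widely in adipocyte transcripts.

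Ordered by mean log2(TPM + 1) over the 4 groups, few neighbors were separate. For Inhba the order ran metaplastic carcinosarcoma, carcinoma, non-TRIM24 tumor and control gland, with mean TPM of 41.0, 43.6, 2.68 and 1.45, and the only neighbors whose values did not overlap were carcinomas and non-TRIM24 tumors. For Tgfbr3 the control glands led at 43.0 TPM and did not overlap the metaplastic carcinosarcomas at 12.7 TPM. For Tgfbr1, Tgfbr2 and Skil the lowest place was held by the non-TRIM24 tumors, with means of 5.19, 13.997 and 5.64 TPM. They did not overlap the first libraries of the group above, the control glands, but those were in batch 1. The batch 2 repeat of gland 133 had 4.95 TPM of Skil, inside the range of the non-TRIM24 tumors. It had 6.96 TPM of Tgfbr1, beside 6.94 TPM in tumor 219, and 18.3 TPM of Tgfbr2. The share of all genes without overlap was not counted for these neighbors. Neighboring groups overlapped at every place for Tgfb1, Tgfb2, Tgfb3 and Smad7.

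The wider pathway was described with 82 other genes in 5 lists, written with earlier results of these data known. Between Trim24COE tumors and control glands 74 of them were tested, and 8 were higher and 2 lower (limma), with a median log2 change of 0.06. These 10 of 74 are a smaller share than the 17.1% called over all genes tested. With median ratio scaling of the libraries the split was 7 higher and 6 lower, and with quantile normalization or all batch 1 mice in 1 fit 12 higher and 4 lower. It was 6 higher and 10 lower without glands 133 and 392, 13 and 2 without glands 417_3 and 517_3, and 13 and 3 without tumor 273_5, so the balance of directions depended on the mice used. The list with the most genes called was that of TGF-beta target genes, of which 7 of 25 were higher and 1 was lower, with a median of 0.22 beside -0.04 for all genes. The medians of the latency list and of the other receptors were farther from 0, at -0.40 and -0.48. Several are matrix genes or their modifiers that fibroblasts express at high level, and the part of the fibroblast sums given for Inhba was not tested.

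Timp1, an inhibitor of matrix metalloproteinases, was at 1684, 647 and 674 TPM in tumors 64, 567 and 897, at 233, 400 and 439 TPM in tumors 89, 273_5 and 3956, and between 7.18 and 22.3 TPM in the glands. Every tumor was over 10 times the highest gland, and the log2 change was 5.14 ± 0.49 (SE, limma, adjusted p = 0.000218). Cdkn2b, which encodes the p15 cell cycle inhibitor, ranged from 28.5 to 162 TPM in the tumors and from 2.03 to 9.44 TPM in the glands (log2 change 3.59, limma, adjusted p = 0.00193). Tgfbi, a secreted matrix protein named for its induction by TGF-beta, ranged from 57.5 to 250 TPM in the tumors and from 22.2 to 36.3 TPM in the glands (log2 change 2.33, limma, adjusted p = 0.00293). Neither Cdkn2b nor Tgfbi overlapped between tumors and glands. The other genes of this list that passed are named after their values were seen. Those that were higher were Snai1, a repressor of E-cadherin, Col1a1, a chain of type I collagen, Adam12, a metalloproteinase, and Lox, a collagen crosslinker. Angptl4, an inhibitor of lipoprotein lipase that is abundant in fat, was lower (log2 change -2.25, limma, adjusted p = 0.00305).

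The response gene Ccn2, which encodes a matricellular protein, did not pass. It had a log2 change of 0.22 (limma, adjusted p = 0.852), with 18.9 and 35.7 TPM in glands 133 and 392 and 174 and 150 TPM in the other pair. Ccn2 thus showed the same division of glands as Skil and Smad7.

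**Figure D5:**
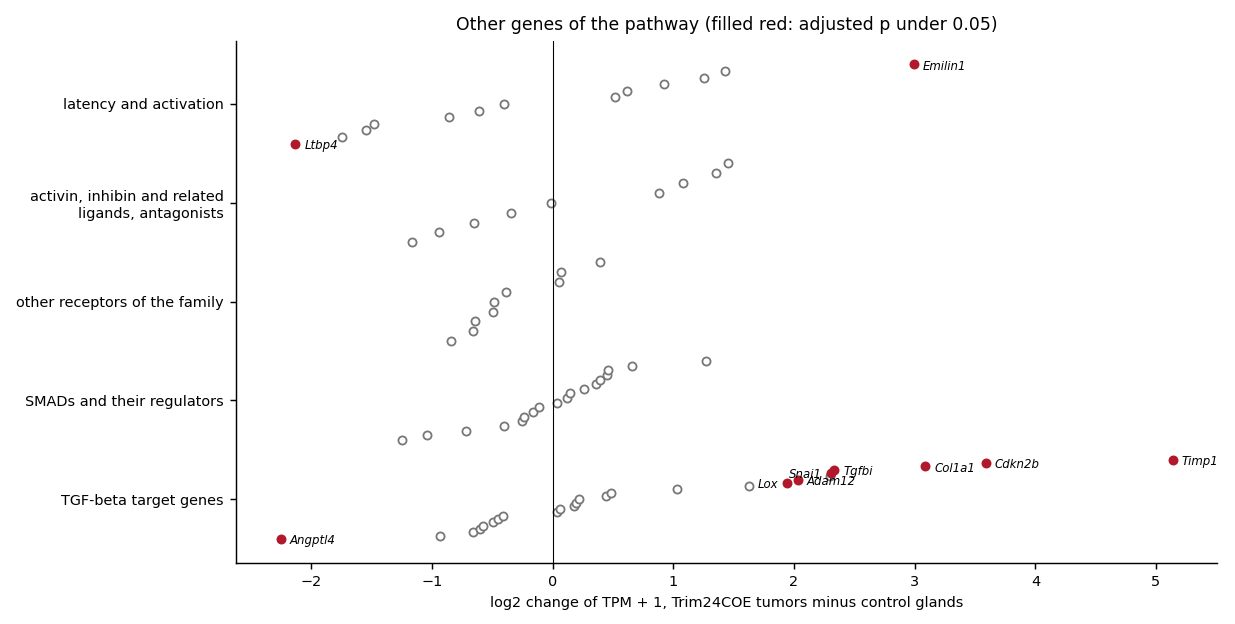
Log2 change of TPM + 1 between Trim24COE tumors and control glands for the other pathway genes tested, 1 point a gene, in 5 lists, with red points for an adjusted p under 0.05 in limma. Of the 10 red points 8 are in the list of TGF-beta target genes, led by Timp1 at 5.14, and none is among the other receptors or the SMADs.

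Among 13 genes that keep TGF-beta latent or release it, 1 was higher and 1 lower. Emilin1, a matrix protein known to hold back processing of the TGF-beta precursor, was at 189.75, 68.81 and 43.46 TPM in tumors 64, 567 and 897, at 34.11, 52.08 and 42.32 TPM in tumors 89, 273_5 and 3956, and between 5.33 and 7.72 TPM in the glands (log2 change 2.99 ± 0.42, SE, limma, adjusted p = 0.00125). All 6 tumors exceeded every gland. Ltbp4, which encodes a protein that binds latent TGF-beta in the matrix, was lower (log2 change -2.13 ± 0.48, SE, limma, adjusted p = 0.0131), with 4.06 to 36.2 TPM in the tumors and 49.1 to 67.2 TPM in the glands. Its relative Ltbp1 had a log2 change of 1.42 (limma, adjusted p = 0.0578), with 76.8, 74.3 and 52.8 TPM in the metaplastic carcinosarcomas and 16.6 to 39.2 TPM in the carcinomas. Thbs1, an activator of latent TGF-beta, did not pass (limma, adjusted p = 0.293), its glands running from 18.5 TPM in gland 133 to 1198 TPM in gland 417_3.

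Of 15 related ligands and antagonists 9 were tested and none passed. Inhbb, which encodes the beta B subunit of activin, had a log2 change of -0.35 (limma, adjusted p = 0.601), and Fst, an antagonist that binds activin, had a log2 change of -1.16 (limma, adjusted p = 0.36) with 122 TPM in tumor 89 against 5.37 to 17.9 TPM in the other tumors. Gdf15, a distant relative that responds to stress, was at 0.71 and 0.47 TPM in glands 133 and 392 and at 63.8 and 64.2 TPM in glands 417_3 and 517_3 (limma, adjusted p = 0.589). Inhbb thus overlapped between the groups, from 25.8 to 71.5 TPM in tumors and from 20.8 to 98.0 TPM in glands, where Inhba did not. None of 9 other receptors tested and none of 18 SMADs and regulators tested passed, among them Pmepa1, which sequesters SMADs (log2 change 1.27, limma, adjusted p = 0.152).

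In metaplastic carcinosarcomas alone, 14 of the 74 wider genes were higher and 7 lower than in the glands, beside 23.0% called over all genes tested. The split was 16 higher and 27 lower with the adipocyte covariate, 15 and 29 without glands 133 and 392, 25 and 8 without glands 417_3 and 517_3, 16 and 12 with median ratio scaling, 10 and 1 without tumor 64, and 10 and 2 without tumor 567. Ltbp1 was among the higher genes (log2 change 2.16 ± 0.35, SE, limma, adjusted p = 0.00509), and, named after their values were seen, so were Il11, Gdf11, Lefty1 and Fstl1, while Ltbp3, Itgb6, Inha, Smad6 and Nedd4l were lower. Itgb6 encodes an epithelial integrin chain that activates latent TGF-beta, and Smad6 and Nedd4l restrain the pathway. In carcinomas 3 were higher, Emilin1, Timp1 and Tgfbi, and Angptl4 was lower, while without glands 133 and 392 the split was 3 and 6 and without glands 417_3 and 517_3 it was 7 and 2. Only 2 were called, both higher, without tumor 3956, gland 417_3 or gland 517_3. Between the tumor types none of the 73 genes tested passed in limma. An unadjusted p under 0.05 was found for 13 of the 73, beside 2126 of all 14193 genes tested. Against the non-TRIM24 tumors, Ltbp1 and Tgfbi were higher in Trim24COE tumors (log2 differences 1.73 and 1.57, limma, adjusted p = 0.0309 and 0.0422), and Timp1 was higher in non-TRIM24 tumors than in glands (log2 change 3.31, limma, adjusted p = 0.0133). The first count of 2 fell to 0 without tumor 64, tumor 567, FVB001 or FVB002, with the adipocyte covariate, with no filter and with libraries as separate samples, to 1 without tumor 89, tumor 3956 or gland 517_3 and with quantile normalization, and was 4 without 219 or with the batch shift subtracted, 6 without tumor 273_5 and 9 with no batch term. No wider gene was called between non-TRIM24 tumors and glands without 219 or FVB002, with no filter or with libraries as separate samples.

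The genes whose pattern was most like that of a called member were found by Pearson correlation of log2(TPM + 1) over the first libraries of the 10 Trim24COE tumors and control glands, among 13516 genes. These libraries share the contrast of tumor and gland, which such a correlation carries with it, so the values are a description. For Inhba the nearest were Olfml3 (r = 0.983), P4ha3 (r = 0.983), a collagen prolyl hydroxylase subunit, and Mtap (r = 0.981), an enzyme of methionine salvage. For Tgfbr3 they were Grik5 (r = 0.965), Akr1e1 (r = 0.962) and Gabarapl1 (r = 0.960), an autophagy gene. For Tgfb3 they were Hadha (r = 0.971), an enzyme of fatty acid oxidation, Notch3 (r = 0.953) and Upb1 (r = 0.948).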

How the data were processed

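RNA from 13 mice was sequenced as 15 libraries. The authors trimmed reads with Trimmomatic, aligned them to GRCm38 with STAR and estimated expression with RSEM against GENCODE M14, as the study's methods state, and deposited TPM, which sum to a fixed total in each library. The processing notes also list mm10, FastQC, TopHat, Cufflinks, DESeq and edgeR without versions. Sources differ on the RNA kit, on the library kit (stranded total RNA or unstranded mRNA) and on the aligner, and the effect of this on the values was not tested. No depth can be read from TPM.

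Levels were analysed as log2(TPM + 1) with limma 3.58.1 (limma-trend) in R 4.3.3. A gene was tested where it reached 1 TPM in at least as many libraries as the smaller group held, and in at least 3 libraries where non-TRIM24 tumors took part. Comparisons of Trim24COE tumors, their types and control glands used the first library of each batch 1 mouse. For comparisons that involve non-TRIM24 tumors, every one of the 15 libraries entered a fit with batch as a term and the mouse as a block (duplicateCorrelation, consensus correlation 0.951). P-values were adjusted by Benjamini and Hochberg over all genes tested, with a threshold of 0.05. Single values were tested with two-sided exact permutation tests that went through every split of the mice (Python 3.11.15, numpy 2.4.6). Their smallest p is 0.00476 for 6 against 4 mice. The fits were first tested on simulated data.

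The members and lists were chosen with earlier results of these data known. All 9 members are named. Of the pathway lists, Ccn2, Tgfbi, Pmepa1, Fst, Inhbb, Gdf15, Ltbp1 and Thbs1 are named, with up to 3 genes of each list called in Trim24COE tumors against control glands at the smallest p. A further gene that this rule names is not reported here. For Inhba and each member called in Trim24COE tumors or in metaplastic carcinosarcomas against glands, the 3 most correlated other genes are named, leaving out clone names. Positions are from GENCODE M21 on GRCm38, and promoters from RefSeq. Alternatives were other added constants (0.1 and 0.5 TPM), no filter and a filter of 5 TPM, median ratio scaling, quantile normalization, an adipocyte covariate, 1 fit for all batch 1 mice, the mean of repeated libraries, other treatments of the batch, and leaving out each mouse. Leaving out a pair of control glands was added after the data were seen.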

Additional observations from a re-analysis of the deposited data

Results flagged for a closer look

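Of 24 sets of values checked for a mouse far from the others of its group, 2 had one, at a 95% critical value that chance passes in about 1 of 20 groups. Smad7 in carcinoma 3956 was at 72.44 TPM while the other 5 Trim24COE tumors reached at most 18.0 TPM, and on the log2(TPM + 1) scale its gap to the next tumor was 0.6256 of the range of the group and only just over the critical value. Its repeat library gave 79.27 TPM. The share of Tgfb2 in the 3 TGF-beta ligands was 15.4117% in carcinoma 273_5, with a gap of 0.7248 of the range of the group. The same tumor had the lowest fibroblast marker sum, 379 TPM, and the lowest Tgfb1 and Inhba levels of the 6 tumors, at 42.01 and 9.09 TPM.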

How the results depend on the processing

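Among the 9 genes the number called in Trim24COE tumors against control glands was 2, and it became 4 with median ratio scaling, 4 with quantile normalization and 4 without glands 133 and 392. In metaplastic carcinosarcomas against glands it was 3 and became 1 with no filter on low values and 5 with the adipocyte covariate. It became 5 without glands 133 and 392 and 4 without glands 417_3 and 517_3, with 1 to 2 when 1 mouse was left out. In carcinomas against glands it was 2 and became 0 with no filter, 1 without glands 133 and 392 and 1 without glands 417_3 and 517_3, with 0 to 2 when 1 mouse was left out. Against non-TRIM24 tumors it was 0 and became 2 with no batch term and 1 with the batch shift subtracted, with 0 to 2 when 1 mouse was left out. The causes were not tested. The Tgfb2 share differed by -3.96 to -1.12 points when 1 mouse was left out, and only without tumor 273_5 did it pass (p = 0.0238, exact permutation test).

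Among the genes followed across settings in each comparison, directions turned only for Tgfb2, Tgfbr1, Smad7, Skil and, between tumor types, Inhba. Between tumor types only Inhba, Tgfbr3 and Smad7 were followed, so a turn of another gene there was not checked. In comparisons with non-TRIM24 tumors, only the genes given above with a log2 change were followed. With the adipocyte covariate the log2 changes of Tgfbr1, Smad7 and Skil were -0.29, -0.69 and -0.97 in Trim24COE tumors, -0.45, -1.42 and -1.91 in metaplastic carcinosarcomas (Skil then passed, limma adjusted p = 0.0105) and -0.19, -0.34 and -0.70 in carcinomas. Without glands 133 and 392 they were -0.17, -0.64 and -1.12, then -0.17, -0.97 and -1.23, then -0.18, -0.31 and -1.002. Without glands 417_3 and 517_3 Tgfb2 was 0.19, 0.092 and 0.28. With 1 mouse left out Smad7 ran from -0.022 to 0.84, from -0.32 to 0.51 and from -0.17 to 1.22, Skil from -0.21 to 0.90, from -0.32 to 0.78 and from -0.092 to 1.01, and between tumor types Inhba from -0.74 to 0.70 and Smad7 from -1.15 to 0.24. Quantile normalization moved the median log2 change of all genes from -0.27 to -0.04 in non-TRIM24 tumors against glands, and median ratio scaling moved it from 0.21 to -0.06 in Trim24COE against non-TRIM24 tumors. The groups were made of different mice, so no paired comparison between groups was made. The labels give no replicate numbers, and those used here only name mice. TPM hold no counts, so the depth that limits the low values of Inhba in glands is unknown.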
